A study of Mus musculus with 15 samples.

Results

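The epidermal growth factor (EGF) family in the mouse uterus was followed through 10 genes: the ligands Areg, Ereg, Hbegf, Egf, Tgfa, and Btc, the receptors Egfr, Erbb2, and Erbb3, and the feedback inhibitor Errfi1. Members were taken by symbol, as every non-control probe whose gene name on the array was 1 of the 10. Their values were not used in that step, although the genes were chosen with earlier results of these data known. The members had 23 of the 41174 probes on the array, and the array carried 21374 gene symbols. Of the 23 probes, 21 were tested because 2 or more arrays of some group read them as well above background, so that each of the 10 genes had at least 1 tested probe. The second probes of Ereg and Btc were above background on 0 of the 15 arrays.

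Uterine RNA was hybridized to one-color Agilent arrays, with 3 arrays for each of 5 groups. All mice were ovariectomized adult females with WT Esr1, operated on at 10 weeks of age or later and rested for 10 to 14 days. One group received saline vehicle and was collected at 24 hr. The others received 250 ng per mouse of estradiol (E2) or estriol (E3), injected ip in 100 μL, and were collected at 2 or 24 hr. E3 is a weaker natural estrogen that carries an additional hydroxyl group on the D ring of E2. The strain is given as C57bl6/J for 12 arrays and as C57bl6/Jx129 for the 3 arrays of E2 at 2 hr. The latter were also read on a second scanner on another day, on 2 slides of their own. Strain, scanner, slide, and treatment therefore cannot be told apart in that group. The arrays of E2 at 24 hr and of E3 at 24 hr were also on slides of their own. Slide and treatment thus cannot be told apart in any comparison at 24 hr or between the times. Only E3 at 2 hr shared a slide with saline, that of saline replicate 3. The vehicle arrays are all from 24 hr, and they served as the reference for both times. In the 2-hr comparisons with saline, treatment and time since injection therefore cannot be told apart. By the sample descriptions single uteri were homogenized, whereas the methods describe pooled tissue, so p-values measure the spread between these samples, which may in part be technical.

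The ligands of this family are made as membrane-bound precursors and are released by metalloproteinases of the ADAM type. Each binds Egfr, Erbb4, or both, which then pair with each other or with Erbb2, which has no known ligand, or with Erbb3, whose own kinase is weak. Estrogen and EGF signaling have long been linked in the rodent uterus, where EGF can stand in for part of the estrogen response and where Areg, Hbegf, and Ereg are also known from implantation. Errfi1, also called Mig-6, binds the kinase domain of Egfr and shuts it off.

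Promoter sequence was at hand for 7 of the 10 genes, as 9 windows of 300 bases (250 before and 50 after a RefSeq transcription start, build GRCm38.p6). The windows of Areg and of the second start of Errfi1 are printed because Errfi1 had the largest change of the family and because these were the 2 windows with a complete cAMP response element (CRE, TGACGTCA). That element was found in 1.79% of all 32851 promoter windows. Capitals mark the CRE and the half-site TGACG on either strand. The half-site overlaps the CRE and was found in 4 of the 9 windows and in 20.8% of all windows. The CRE begins at position -61 in Areg, chr5:91139349-91139648 on the plus strand, and at -51 in Errfi1, chr4:150854820-150855119 on the plus strand.
Areg promoter: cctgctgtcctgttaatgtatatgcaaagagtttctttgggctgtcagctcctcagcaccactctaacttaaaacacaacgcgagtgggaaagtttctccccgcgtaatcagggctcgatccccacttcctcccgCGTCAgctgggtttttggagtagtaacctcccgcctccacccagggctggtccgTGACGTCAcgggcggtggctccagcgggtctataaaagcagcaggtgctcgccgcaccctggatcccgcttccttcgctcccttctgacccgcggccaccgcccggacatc
Errfi1 promoter, second start: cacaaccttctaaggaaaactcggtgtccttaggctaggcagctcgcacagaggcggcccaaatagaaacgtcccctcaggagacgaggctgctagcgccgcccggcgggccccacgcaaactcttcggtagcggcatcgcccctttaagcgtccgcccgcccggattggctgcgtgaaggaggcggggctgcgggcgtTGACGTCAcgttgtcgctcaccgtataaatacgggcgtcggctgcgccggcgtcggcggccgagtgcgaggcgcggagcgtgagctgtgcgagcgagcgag
The estrogen response element in its full form (GGTCANNNTGACC, which reads the same on both strands) was found in 0 of the 9 windows and in 0.07% of all windows. Its half-site AGGTCA, on either strand, was found in the window of the first Errfi1 start alone and in 16.3% of all windows. The AP-1 site TGANTCA was found in 0 of the 9 windows and in 7.81% of all windows. A match describes the letters of these windows and is not evidence of a bound site.

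Probe identity mattered for 3 members, and the first 30 of the 60 bases of the probes concerned are printed for that reason. Coordinates are those of the array annotation, build mm7. The probes named Ereg lie on opposite strands and 40.7 kb apart, the tested one on the minus strand at chr5:91040155-91040214 and the one designed on the Ereg transcript NM_007950 on the plus strand at chr5:91080900-91080961. The tested Ereg probe was designed on the clone AK019057 and therefore need not report the Ereg transcript.
Ereg A_51_P157223, AK019057: tgactttgtactggtcttccttagttcccc
Ereg A_51_P171215, NM_007950: acacagatttcccattatattgtgtataca
Of the Egfr probes, A_52_P106259 and A_52_P674338 were designed on NM_207655, the full-length transcript, and A_52_P56471 and A_51_P392242 on NM_007912, a shorter variant that encodes a truncated receptor. A probe designed on 1 transcript can also read the other where they share sequence, which was not examined. The probe A_52_P5855, on clone AK049452, lies 158 kb toward the 5′ end from A_52_P106259.
Egfr A_52_P106259, chr11:16865821-16865880, plus strand: gttgcaagccactctaactgtagcaatgaa
Egfr A_51_P392242, chr11:16839391-16839450, plus strand: caagaggttaacactacggactagccattc
Egfr A_52_P5855, chr11:16707644-16707703, plus strand: ccactagttaaacattggtaatctgctttt
The brightest Erbb3 probe was designed on the predicted transcript XM_972868, 2.53 kb beyond the nearest of 4 probes for the curated transcript NM_010153.
Erbb3 A_52_P432949, chr10:128069461-128069520, minus strand: gttgcagatacacactcattacaagccaat
Erbb3 A_51_P414813, chr10:128071993-128072052, minus strand: gtcaaacgtcagagtcatcagagggccatg

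Levels are given on the log2 scale as the processed signal over the 75th percentile of the same array, so that 0 is the 75th percentile. The 75th percentile itself lay at a signal of 2989 to 4412 over the 15 arrays, and 77.7% to 81.6% of probes were well above background. Markers of uterine epithelium (8 of 8), stroma (7 or 8 of 8), and myometrium (7 of 7) were well above background, as were Esr1 and Pgr. Transcripts of other organs were also present. The summed level of 12 liver transcripts, on a linear scale where 1 is the 75th percentile, was 7.42 to 27.5 on the saline arrays, 0.281 to 0.329 at 2 hr and 0.412 to 0.521 at 24 hr after E2, and 1.92 to 4.62 at 2 hr and 0.481 to 0.786 at 24 hr after E3. All 12 were well above background on each saline array and 3 to 5 on the arrays of E2 at 2 hr. The summed level of 10 exocrine pancreas transcripts was 690.6 on E3 2 hr replicate 2 and 330.1 on E2 24 hr replicate 2, was 14.5 on E3 2 hr replicate 3 and 6.10 on E2 24 hr replicate 3, and was at most 0.637 on the other arrays.

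At 2 hr, Hbegf and Errfi1 rose after either estrogen and Btc fell. On its brightest probe, Erbb3 was called lower after E2 and not after E3, and the difference between the estrogens did not pass (0.34 ± 0.15, adjusted p = 0.079). Calls required a limma p-value under 0.001 together with a 2-fold change, and a gene with several probes was counted by its brightest tested probe. Against saline, 2 of the 10 members were called higher and 2 lower at 2 hr after E2, where 10.6% of all 34751 tested probes were called higher and 10.7% lower. At 2 hr after E3, 2 were called higher and 1 lower, where 4.68% of 34760 probes were called higher and 9.11% lower. The median change of the 9 members other than Areg, which was mostly below background, was 0.35 after E2 and 0.29 after E3, against -0.08 and -0.11 over all probes. Both comparisons use the same saline arrays, collected at 24 hr. With 10 genes, these counts describe the members and are not a test of the family.

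**Figure D1:**
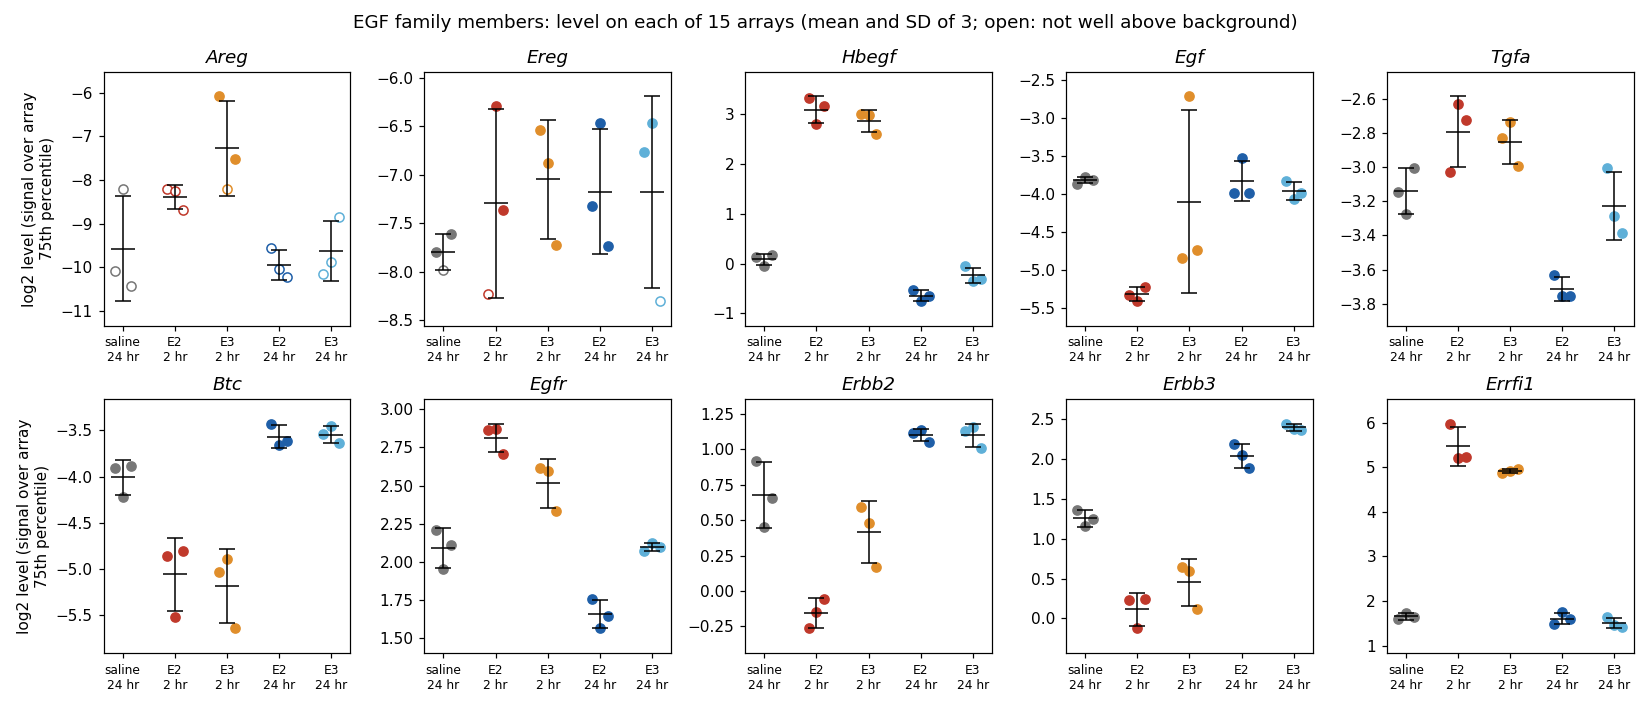
Level of each member's brightest tested probe (log2 signal over the array's 75th percentile, y axis) on the 3 arrays of each group (x axis), with the mean and SD as black bars and open points for values not well above background. Hbegf and Errfi1 stand far above every other group at 2 hr after either estrogen, and Btc and Erbb3 lie below saline at 2 hr and above it at 24 hr.

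Hbegf, the heparin-binding ligand that uterine epithelium makes around implantation, had the largest change among the ligands. Its log2 level was 0.12, -0.05, and 0.17 on the saline arrays. At 2 hr it was 3.30, 2.79, and 3.15 after E2 and 3.00, 2.97, and 2.60 after E3. All 6 arrays at 2 hr were above all 3 saline arrays, and the 2 treated groups overlapped. The rise was 3.00 ± 0.15 (log2 change ± SE, n = 3 per group, 7.99-fold, limma adjusted p = 1.6e-08) after E2 and 2.77 ± 0.15 (6.83-fold, adjusted p = 5.6e-08) after E3. Within the single slide that held the E3 arrays and saline replicate 3, the rise after E3 was 2.68. By 24 hr, Hbegf stood at -0.53, -0.75, and -0.66 after E2 and at -0.06, -0.35, and -0.31 after E3. Each array at 24 hr was below every saline array. The difference from saline was -0.73 ± 0.15 after E2 (adjusted p = 0.0010, under 2-fold), and for E3 the difference was -0.32 ± 0.15 (adjusted p = 0.11). In bulk uterus, a change in the number of cells of a type and a change in RNA per cell cannot be told apart.

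Areg, the amphiregulin gene, was close to the detection limit. It was well above background on 2 arrays, E3 2 hr replicates 1 and 3, at -6.09 and -7.52, and replicate 2 was not, at -8.21. On the other 12 arrays Areg was not well above background, with values from -10.44 to -8.20. The Areg probe entered the fit through E3 at 2 hr alone, where replicate 2 overlapped with saline, so its fitted values are not interpreted, although they enter the counts over the members and the plotted intervals.

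The tested Ereg probe was well above background on 12 arrays, with levels of -8.30 to -6.29, and its groups overlapped in every comparison with saline. Its difference from saline lay between 0.50 and 0.75 in the 4 treated groups, each with an SE of 0.55. The probe on the Ereg transcript itself was not well above background on any array, at -10.42 to -9.43.

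Egf, the founding ligand, was lower at 2 hr than on the saline arrays, except on 1 array. Its level was -3.86, -3.78, and -3.81 on the saline arrays and -5.32, -5.40, and -5.22 at 2 hr after E2. After E3 at 2 hr it was -4.84, -2.71, and -4.74, so that replicate 2 was higher than all other arrays and the other two were lower than all saline arrays. That replicate is the array with the highest pancreas sum. With all arrays, the difference from saline was -1.50 ± 0.42 for E2 (adjusted p = 0.0075) and -0.28 ± 0.42 for E3 (adjusted p = 0.61), and neither was called. Without E3 2 hr replicate 2, the Egf difference for E2 was called at the same size (adjusted p = 1.8e-06), and that for E3 was -0.98 ± 0.14 (adjusted p = 0.00020), just under 2-fold.
At 24 hr, Egf stood at -3.98, -3.52, and -3.98 after E2 and at -3.82, -4.06, and -3.99 after E3. E2 24 hr replicate 2, the highest of these, was the array with the second pancreas sum. Neither 24-hr group differed detectably from saline (-0.01 ± 0.42 and -0.14 ± 0.42). Submandibular gland, the richest source of Egf in mice, was represented by 4 transcripts, of which 2 were well above background. Of these, Klk1, a kallikrein gene that tissues other than salivary gland also express, was called higher at 2 hr after E2 and E3 (7.10 ± 0.78 and 7.31 ± 0.78), and Psp was called lower (-2.44 ± 0.15 and -1.78 ± 0.15). The summed level was 0.0975 to 0.118 with saline, 1.22 to 5.36 and 2.00 to 8.78 at 2 hr after E2 and E3, and 0.443 to 2.62 and 0.178 to 0.193 at 24 hr. The summed level of 6 kidney transcripts was 0.0465 to 0.0994 over all arrays. The part that transcripts of these organs have in the Egf values was not tested.

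**Figure D2:**
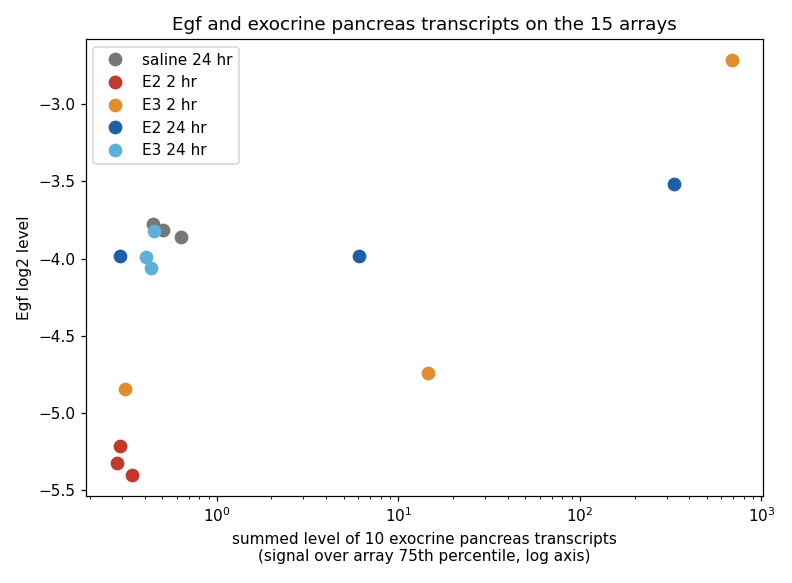
Egf level (log2 signal over the array's 75th percentile, y axis) against the summed level of 10 exocrine pancreas transcripts (linear signal over the 75th percentile, log x axis) on the 15 arrays, colored by group. The E3 2 hr array at a pancreas sum of 690.6 has the highest Egf level, -2.71, and the E2 24 hr array at 330.1 has the next, -3.52.

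Tgfa, which encodes transforming growth factor α, was measured by 2 probes on 1 transcript. The brighter probe gave -3.14, -3.27, and -3.00 with saline and -3.63, -3.75, and -3.76 at 24 hr after E2, without overlap. The difference was -0.57 ± 0.13 (1.49-fold, adjusted p = 0.0020), too small to be called. The second Tgfa probe, A_52_P555423, differed by 0.43 ± 0.18 in the opposite direction in the same comparison (adjusted p = 0.050), so the direction of Tgfa at 24 hr after E2 rests on the probe. At 2 hr the probes differed from saline by 0.35 ± 0.13 and 0.54 ± 0.18 after E2 and by 0.29 ± 0.13 and 0.32 ± 0.18 after E3.

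Btc, the betacellulin gene, moved against Hbegf. Its level was -3.91, -4.22, and -3.89 with saline, and at 2 hr -4.86, -5.52, and -4.80 after E2 and -5.03, -4.89, and -5.64 after E3. All 6 arrays at 2 hr were below all saline arrays. The fall was 1.05 ± 0.21 after E2 (2.07-fold, adjusted p = 0.00089) and 1.18 ± 0.21 after E3 (2.27-fold, adjusted p = 0.00056). Both are close to the 2-fold limit and were lost with normexp background correction, where the differences were -0.70 and -0.83, and with quantile normalization (-0.89 and -0.95). The E2 call was also lost without scaling between arrays (-0.96), and without saline replicate 1 (adjusted p = 0.0045), saline replicate 3 (adjusted p = 0.0047), or E2 2 hr replicate 2 (adjusted p = 0.0035). The E3 call was lost without E3 2 hr replicate 3 (-0.95) and within the shared slide, where saline has 1 array and the difference was -1.30 (adjusted p = 0.0097). At 24 hr Btc was -3.43, -3.66, and -3.62 after E2 and -3.54, -3.46, and -3.64 after E3, all above the saline arrays. The differences from saline, 0.44 ± 0.21 and 0.46 ± 0.21, did not pass (adjusted p = 0.090 and 0.11).

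Egfr, the receptor that most of these ligands bind, changed by different amounts on its 6 probes. The brightest, A_52_P106259, had a level of 2.21, 1.95, and 2.11 with saline, 2.87, 2.87, and 2.71 at 2 hr after E2, and 2.62, 2.60, and 2.33 after E3. Arrays at 2 hr did not overlap with saline, and the differences were 0.72 ± 0.10 for E2 (1.65-fold, adjusted p = 4.1e-05) and 0.42 ± 0.10 for E3 (1.34-fold, adjusted p = 0.0032), both too small to be called. The other full-length probe, A_52_P674338, was called in both groups, with rises of 1.27 ± 0.12 (2.41-fold, adjusted p = 2.2e-06) after E2 and 1.20 ± 0.12 (2.30-fold, adjusted p = 5.9e-06) after E3. It lies 1.63 kb from A_52_P106259.
The probes designed on NM_007912 were not called at 2 hr. A_52_P56471 differed from saline by 0.09 ± 0.11 after E2 and 0.05 ± 0.11 after E3, and A_51_P392242 by 0.20 ± 0.09 and 0.14 ± 0.09. The most 3′ probe, A_52_P175190 on clone AK033431, differed by 0.06 ± 0.11 and 0.16 ± 0.11. Relative to A_51_P392242 on the same array, A_52_P106259 shifted by 0.53 at 2 hr after E2 and by 0.28 after E3, then by -0.65 and -0.49 at 24 hr. In each of these comparisons the ratio on 3 arrays did not overlap with that on the 3 saline arrays. This pair of probes was chosen after the values were seen, and the shifts are given as a description of these probes, not of transcript variants. Against A_52_P56471, also designed on NM_007912, the shift was 0.63 and 0.37 at 2 hr without overlap and -0.16 and -0.01 at 24 hr with overlap.

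**Figure D3:**
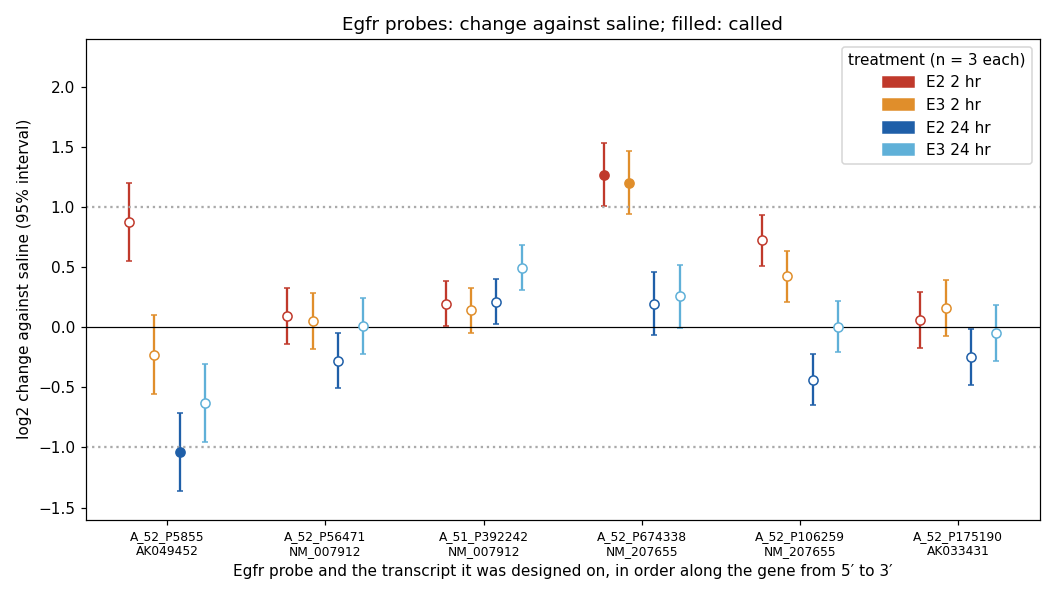
Log2 change against saline with its 95% interval (y axis) for the 6 Egfr probes in order along the gene (x axis), for 4 treated groups of 3 arrays against 3 saline arrays. Filled points are called, and dotted lines mark a 2-fold change. The NM_207655 probes lie above 0 at 2 hr, of which A_52_P674338 is called, the NM_007912 probes differ from saline by at most 0.20 at that time, and A_52_P5855 lies above 0 at 2 hr after E2 and below it after E3, neither called.

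The 5′ probe A_52_P5855 behaved apart from the rest. Its level was -5.51, -5.43, and -5.63 with saline, -4.83, -4.62, and -4.48 at 2 hr after E2, and -6.05, -5.59, and -5.61 after E3. The E3 arrays overlapped with saline and lay below all E2 arrays, and the difference of E2 from saline, 0.88 ± 0.15, was not called. E3 was lower than E2 by 1.11 ± 0.15 on the log2 scale (2.15-fold, adjusted p = 0.00013), which was called, though not with normexp correction (-0.70) or without E3 2 hr replicate 1. At 24 hr it was below saline in both groups, by 1.04 ± 0.15 after E2 (adjusted p = 8.1e-05, called, but not with normexp or quantile processing or without saline replicate 2 or E2 24 hr replicate 1) and by 0.63 ± 0.15 after E3 (adjusted p = 0.0072). Because E2 at 2 hr differs from the other groups in strain and scanner, the 2-hr difference on this Egfr probe cannot be told apart from them.
At 24 hr, the brightest Egfr probe stood at 1.75, 1.57, and 1.65 after E2, below every saline array, with a difference of -0.44 ± 0.10 (adjusted p = 0.0020). After E3 it was 2.07, 2.13, and 2.10, within the saline range. After E2, A_52_P56471 (-0.28 ± 0.11) and A_52_P175190 (-0.24 ± 0.11) were also lower than saline, as was A_52_P5855. Going the other way after E2 were A_52_P674338, by 0.19 ± 0.12 with overlap, and A_51_P392242, by 0.21 ± 0.09 without overlap. After E3, A_51_P392242 differed from saline by 0.50 ± 0.09 (adjusted p = 0.0012). The direction of Egfr at 24 hr thus rests on the probe. Liver, which expresses Egfr, gave its highest summed level on the saline arrays, and its part in the Egfr values was not tested.

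Erbb2, the co-receptor without a ligand of its own, was lower at 2 hr after E2 and not detectably after E3. The brighter of 2 probes gave 0.92, 0.45, and 0.66 with saline, -0.27, -0.15, and -0.06 at 2 hr after E2, and 0.59, 0.48, and 0.17 after E3. E2 arrays lay below all saline arrays, whereas E3 arrays overlapped with them. The Erbb2 difference for E2 was -0.83 ± 0.13 (1.78-fold, adjusted p = 0.00012) and for E3 -0.26 ± 0.13 (adjusted p = 0.11). The second Erbb2 probe gave -0.92 ± 0.11 and -0.16 ± 0.11. At 24 hr both groups stood above saline, at 1.11, 1.14, and 1.05 after E2 and 1.13, 1.16, and 1.01 after E3, by 0.43 ± 0.13 and 0.42 ± 0.13 (adjusted p = 0.012 and 0.024). None of these Erbb2 differences reached 2-fold.

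Erbb3, the receptor with a weak kinase that binds neuregulins, fell at 2 hr and was above saline at 24 hr on its brightest probe. The level was 1.37, 1.15, and 1.24 with saline, 0.23, -0.13, and 0.24 at 2 hr after E2, and 0.65, 0.59, and 0.12 after E3. Saline and 2-hr arrays did not overlap. The fall was 1.14 ± 0.15 after E2 (2.20-fold, adjusted p = 2.5e-05, called), and the E3 difference was -0.80 ± 0.15 (1.74-fold, adjusted p = 0.00061), too small to be called. At 24 hr the probe read 2.19, 2.05, and 1.88 after E2 and 2.44, 2.37, and 2.37 after E3. The rise after E3 was 1.14 ± 0.15 (2.21-fold, adjusted p = 0.00024, called), and the difference for E2 was 0.79 ± 0.15 (1.73-fold, adjusted p = 0.00053). With the mean over the 5 tested probes, Erbb3 did not reach 2-fold at 2 hr after E2 (-0.87) or at 24 hr after E3 (0.99).
On the 4 probes of the curated transcript, every fitted change had the same direction as on the brightest. At 2 hr they differed from saline by -1.23 to -0.28 after E2 and by -1.09 to -0.60 after E3, and at 24 hr by 0.46 to 0.83 and 0.59 to 1.06. However, A_52_P133607 was not well above background on any 2-hr array, and A_51_P488243 overlapped with saline at 2 hr after either estrogen. A_51_P488243 also shares much of its sequence with A_51_P342050, so the 2 are not separate readings. The curated probes were dim, and with normexp correction the Erbb3 calls at 2 hr on A_51_P414813 (-0.30 for E2) and A_51_P342050 (-0.42 and -0.39) were lost. On A_51_P342050 the E2 call was also lost without E2 2 hr replicate 1, and the E3 call with quantile normalization, without E3 2 hr replicate 1, and within the shared slide. Over the 15 arrays the brightest probe correlated with the 4 curated probes at Pearson r = 0.77 to 0.98. With the probes of the neighboring gene Pa2g4 it correlated at 0.19 and -0.53, a description across arrays of 5 groups. Its mean level with saline was 1.25, against -7.70 to -6.49 on the curated probes.
Summed epithelial markers also differed between the groups. They were 82.6 to 112.7 with saline, 60.2 to 81.3 at 2 hr after E2, 64.9 to 87.1 at 2 hr after E3, 180.6 to 192.6 at 24 hr after E2, and 133.8 to 144.1 at 24 hr after E3. Of the 8 markers, 0 were called higher and 1 lower at 2 hr after E2, where 10.6% and 10.7% of probes were. At 24 hr after E2, 4 were called higher and 0 lower, where 6.94% and 11.1% of probes were. After E3, 0 were called, where 4.68% and 9.11% of probes were at 2 hr and 1.85% and 1.96% at 24 hr. Cdh1, 1 of the 8, read 1.74, 2.24, and 2.16 (log2) at 2 hr after E2, against 1.76, 1.62, and 1.64 with saline. By group means, Btc and Erbb2, like the brightest Erbb3 probe, were below saline at 2 hr and above it at 24 hr. Summed skeletal muscle markers (7 on the array) differed too, at 7.26 to 8.26 with saline, 3.93 to 4.36 and 5.88 to 6.43 at 2 hr after E2 and E3, and 23.2 to 28.1 and 14.2 to 16.6 at 24 hr. Of 8 stroma markers, 3 were called lower at 2 hr after E2 and 4 after E3, where 10.7% and 9.11% of all probes were. Erbb3 is expressed in epithelium and in liver, and the part that any of these tissues has in its values was not tested.

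Errfi1, the inhibitor that Egfr signaling itself switches on, had the largest change of the 10 members at 2 hr. Its level was 1.59, 1.74, and 1.65 with saline, 5.98, 5.20, and 5.23 at 2 hr after E2, and 4.88, 4.91, and 4.96 after E3. The 6 arrays at 2 hr lay more than 3 log2 units above every saline array, and all E2 arrays were above all E3 arrays. The rise was 3.81 ± 0.17 after E2 (14.0-fold, adjusted p = 9.5e-09) and 3.26 ± 0.17 after E3 (9.58-fold, adjusted p = 4.9e-08). Within the shared slide, the E3 rise was 3.27. At 24 hr Errfi1 was close to saline and overlapped with it, at 1.49, 1.75, and 1.59 after E2 and 1.65, 1.45, and 1.42 after E3, with differences of -0.05 ± 0.17 and -0.15 ± 0.17.

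**Figure D4:**
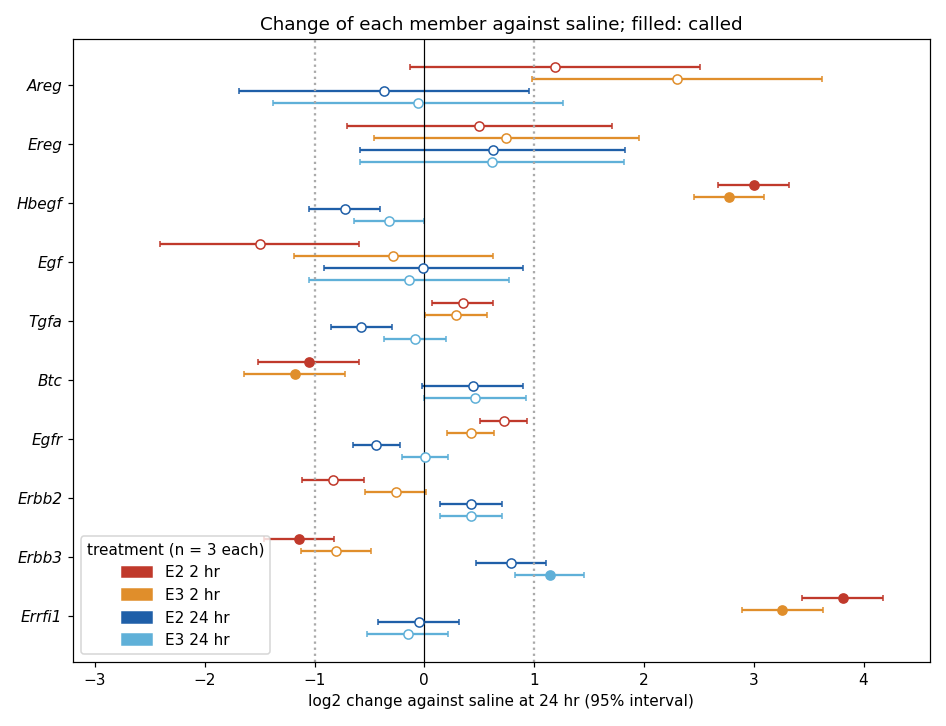
Log2 change against saline with its 95% interval (x axis) for the brightest probe of each of the 10 members (y axis), in 4 treated groups of 3 arrays each. Filled points are called, and dotted lines mark a 2-fold change. The largest changes, those of Hbegf and Errfi1 at 2 hr, do not appear at 24 hr, and Erbb3 goes from below to above 0.

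At 24 hr few members differed from saline by 2-fold. After E2, 0 of the 10 were called in limma, where 6.94% of probes were called higher and 11.1% lower. At an unadjusted p below 0.05 there were 5, against 65.1% of all probes. After E3, 1 was called higher, Erbb3, and 0 lower, where 1.85% of probes were called higher and 1.96% lower. At an unadjusted p below 0.05 there were 3 of the 10 members after E3, against 44.4% of all probes.

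The times were also compared directly within each treatment. From 2 to 24 hr after E2, 3 members rose and 3 fell, where 13.9% of all probes were called higher and 17.2% lower. Btc (1.49 ± 0.21), Erbb2 (1.26 ± 0.13), and Erbb3 (1.93 ± 0.15) rose, and Hbegf (-3.72 ± 0.15), Egfr (-1.16 ± 0.10), and Errfi1 (-3.86 ± 0.17) fell. After E3, 2 rose and 2 fell, where 9.65% of probes were called higher and 6.47% lower. Btc (1.64 ± 0.21) and Erbb3 (1.94 ± 0.15) rose, and Hbegf (-3.09 ± 0.15) and Errfi1 (-3.41 ± 0.17) fell. The E3 arrays at 2 and 24 hr are of 1 strain and scanner, which the E2 arrays are not. With either estrogen, the 2 times were on different slides. With the mean over all tested probes in place of the brightest probe, Egfr no longer passed from 2 to 24 hr after E2 (-0.80).

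E3 and E2 were given at the same dose, and their levels were compared directly at each time. The 2-hr arrays of the 2 estrogens also differ in strain, scanner, and slide, and the 24-hr arrays in slide. None of these can be told apart from the compound. At 2 hr, 0 of the 10 members were called different in limma, where 1.54% of probes were called higher with E3 and 5.83% lower. At an unadjusted p below 0.05 there were 5 members, against 51.4% of all probes. Errfi1 was lower with E3 than with E2 by 0.55 ± 0.17 (95% interval -0.92 to -0.18, adjusted p = 0.020), without overlap of the arrays. When 1 array at a time was left out, this difference lay between -0.69 and -0.30. The brightest Egfr probe was lower by 0.30 ± 0.10 (-0.51 to -0.09, adjusted p = 0.027) and Erbb2 higher by 0.57 ± 0.13 (0.29 to 0.85, adjusted p = 0.0036), likewise without overlap. On 4 of the other Egfr probes the difference lay between -0.07 and 0.10. Egf was higher by 1.22 ± 0.42 (0.31 to 2.12, adjusted p = 0.033) and by 0.52 (adjusted p = 0.013) without E3 2 hr replicate 2. For Hbegf the E3 minus E2 difference was -0.23 (-0.55 to 0.09) and for Btc -0.13 (-0.59 to 0.33).
At 24 hr, again 0 of the 10 were called, where 2.77% of probes were called higher with E3 and 2.07% lower. At an unadjusted p below 0.05 there were 4 members, against 45.6% of all probes. Hbegf (0.41 ± 0.15, adjusted p = 0.047), Tgfa (0.49 ± 0.13, adjusted p = 0.011), and Egfr (0.44 ± 0.10, adjusted p = 0.0041) were higher with E3, each without overlap. For Erbb3 the difference of 0.35 ± 0.15 did not pass (adjusted p = 0.076). The second Tgfa probe gave -0.27 ± 0.18. For Erbb2 the difference was -0.001 with an interval of -0.28 to 0.28, for Btc 0.02 (-0.44 to 0.48), and for Errfi1 -0.10 (-0.47 to 0.27).

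**Figure D5:**
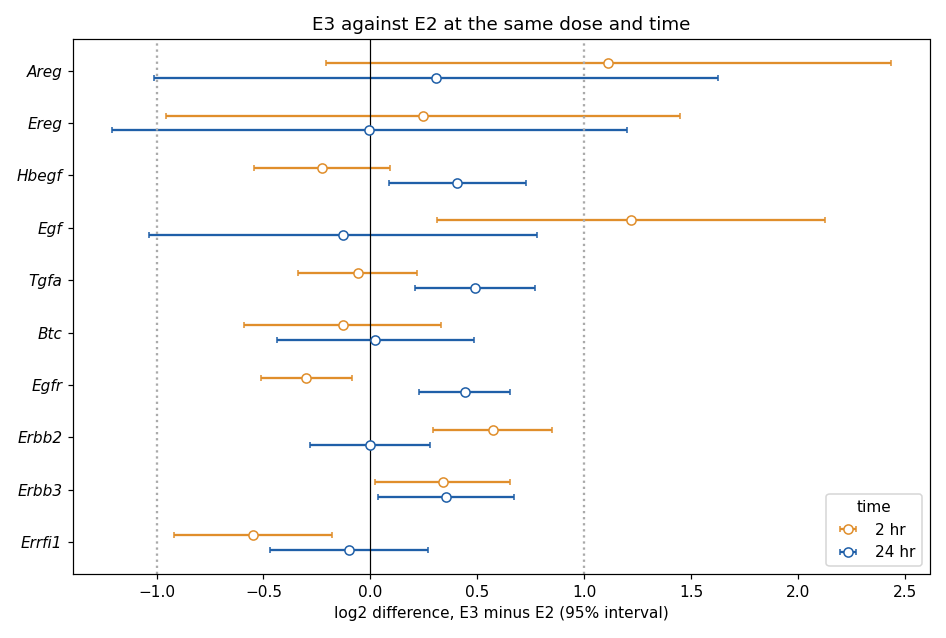
E3 minus E2 difference in log2 level with its 95% interval (x axis) for the brightest probe of each member (y axis) at 2 and 24 hr, 3 arrays per group. Open points were not called, and dotted lines mark a 2-fold difference. No member is called at either time, and the intervals of Areg, Ereg, and Egf are the widest.

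The difference at 24 hr minus that at 2 hr was called for 0 of the 10 members in limma, where 11.1% of probes were called higher and 4.39% lower, and passed an unadjusted p of 0.05 for 5, against 53.3% of all probes. Egfr had the smallest p, with 0.74 ± 0.14 (adjusted p = 0.0010) on the brightest probe and 1.52 ± 0.21 (adjusted p = 0.00016, called) on A_52_P5855.

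The other genes of the pathway were taken from lists. Their counts stand against the shares of all probes called, which at 2 hr were 10.6% higher and 10.7% lower after E2 and 4.68% higher and 9.11% lower after E3. At 24 hr the shares were 6.94% and 11.1% after E2 and 1.85% and 1.96% after E3. Of 4 tested further ligands and receptors, 2 rose and 1 fell at 2 hr after E2, and 1 rose after E3. Nrg1, a neuregulin that binds Erbb3 and Erbb4, rose by 2.33 ± 0.20 and 1.86 ± 0.20. Erbb4, its receptor, rose by 1.09 ± 0.13 and Nrg4, another neuregulin, fell by 1.07 ± 0.20 after E2. None of the 4 was called at 24 hr. The median change of the list was 0.68 and 0.36 at 2 hr.
Among 8 sheddases and partners, Rhbdf2, which helps the sheddase Adam17 mature, rose by 1.53 ± 0.14 at 2 hr after E2. At 24 hr after E2, the metalloproteinase gene Adam12 rose by 1.35 ± 0.20 and its family's inhibitor Timp3 fell by 1.30 ± 0.13. Adam12 was lower with E3 than with E2 at 24 hr, by 1.59 ± 0.20 (adjusted p = 0.00013). No gene of this list was called against saline after E3.
Of 22 adaptors and signaling genes, 4 rose and 2 fell at 2 hr after E2, and 2 rose and 2 fell after E3, with the numbers that fell near the share of all probes. Map2k1, the kinase that activates the Erk proteins, rose by 1.85 ± 0.12 and 1.77 ± 0.12. Pik3r1, a regulatory subunit of PI 3-kinase, fell by 1.40 ± 0.11 and 1.35 ± 0.11. At 24 hr, 1 rose and 1 fell after E2, Map2k2 (1.03 ± 0.12) and Plcg1 (-1.06 ± 0.11), and no gene of the list was called in limma after E3.
Of 14 other inhibitors and turnover genes, 2 rose at 2 hr after E2 and 1 after E3, which is near the share of all probes. Ptpn1, a tyrosine phosphatase that acts on Egfr, rose by 1.71 ± 0.15 and 1.48 ± 0.15, and Lrig1, a membrane protein that promotes receptor loss, rose by 1.58 ± 0.20 after E2. At 24 hr, the ubiquitin ligase gene Cblc rose by 1.99 ± 0.15 after E2 and 1.11 ± 0.15 after E3, and Cblb fell by 1.18 ± 0.09 after E2.

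The genes whose levels ran most like those of 3 members over the 15 arrays were named as a description, with Pearson r. For Errfi1 they were Has1 (0.995), Fkhl18 (0.993), and A330102K23Rik (0.993). For the brightest Egfr probe they were Pdk4 (0.987), Zfp655 (0.980), and Nrp2 (0.975). For Areg they were Dusp2 (0.901), Tnfrsf19l (0.894), and Mobkl2c (0.889). Areg was well above background on 2 arrays alone, so the genes named for it are not interpreted. The 15 arrays form 5 groups, which any gene with the same order of group means shares.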

How the data were processed

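Uterine RNA of 15 samples was labeled with Cy3 and hybridized to one-color Agilent Whole Mouse Genome arrays. Per the file headers, scans were processed by Agilent Feature Extraction 9.5.3.1. The deposited intensity values are linear, with background and spatial trends removed on each array, and were not normalized between arrays. A deposited series-wide table repeats these intensities without change.

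Control spots and 1893 outlier spots were left out, spots of 1 probe were averaged on the log2 scale, and each array's log2 75th percentile was subtracted. Tested probes (34760, 84.4%) were those that 2 or more arrays of some group read as well above background. Such scaling would misplace all levels if most genes moved in 1 direction. Group means were fitted with limma 3.58.1 in R 4.3.3 (10 residual and 2.06 prior degrees of freedom) for 9 comparisons, with Benjamini-Hochberg adjustment over all tested probes. Calls required p below 0.001 and 2-fold. For a gene with several tested probes, the brightest on average stood for the gene. The study's Rosetta Resolver error model could not be repeated.

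The number of arrays limits the precision. Named genes were all members, at most 3 called genes of each pathway list and comparison with the largest change, and the 3 genes most correlated with Areg, Egfr, and Errfi1. One gene that this rule names is not reported here. The members and lists were chosen with earlier results of these data known. The procedure was tested on simulated data. Promoters came from RefSeq, and gene names from the array files. Figures were drawn with matplotlib 3.10.9. The alternatives were other background corrections, scalings, filters, call rules, probe choices, blocks, and sets of arrays.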

Additional observations from a re-analysis of the deposited data

Results flagged for a closer look

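The E3 minus E2 difference at 24 hr minus that at 2 hr was called in limma for 1 member probe and 3 pathway genes. For the Egfr probe A_52_P5855 it was 1.52 ± 0.21 (log2, SE, 3 arrays per group, adjusted p = 0.00016). With normexp background correction this Egfr call was lost. It was -2.19 ± 0.29 for Adam12 (adjusted p = 9.8e-05), -1.39 ± 0.21 for Cblc (adjusted p = 0.00027), and -1.05 ± 0.18 for Map2k2 (adjusted p = 0.00047). Each uses the 3 arrays of E2 at 2 hr, whose strain, scanner, and slides cannot be told apart from the treatment.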

How the results depend on the processing

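Under 32 alternatives, 2733 recomputed member changes gave 0 reversed calls, 14 lost calls, and 29 added calls, some of them for Areg, whose values are mostly background. These counts of called members moved by over 1.5 times. With p below 0.001 and no minimum change, 5 members were called for E3 at 2 hr, 4 for E2 at 24 hr, and 1 each for E3 against E2 at 2 hr, at 24 hr, and between the times. With an adjusted p below 0.05 and 2-fold, 1 was called for E3 against E2 at 2 hr (Egf, 1.22). With the mean over all tested probes of a gene, 0 were called for E3 at 24 hr (Erbb3, 0.99). Among smaller moves were 6 for E2 at 2 hr with no minimum change, 8 for E2 between the times with the adjusted p (Egf and Areg, the latter below background at both times), 4 for E3 at 2 hr and 5 for E3 between the times with the adjusted p (Areg), 3 for E2 at 2 hr and 5 for E2 between the times with the mean over probes, and 3 for E2 and 2 for E3 at 2 hr with normexp or quantile processing. Hbegf and Errfi1 kept their calls at 2 hr under each alternative that included the groups compared, which for E2 leaves out the 12 arrays of 1 strain and scanner. The choice of representative among curated probes and the fit without the 2 arrays high in pancreas transcripts were added after seeing the data. Replicate numbers did not pair the arrays (correlation of same-numbered deviations -0.47 to 0.55, over 0.1 in 10 of 30 pairs), and with the replicate block 4 members were called for E2 and 3 for E3 at 2 hr, 0 and 1 at 24 hr, 6 and 4 between the times, and 0 in the other comparisons, as without it. Dim probes limit Areg, Ereg, and the curated Erbb3 probes.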
